A study of Homo sapiens with 12 samples.

Results

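The 2 mature miRs cut from the hairpin of MIR342, miR-342-3p and miR-342-5p, were described across the 12 miRNA arrays of a study of CD99 in osteosarcoma cells. They are 2 of the 851 human miRNA names in the deposited table of log2 values, and 2 of the 219 that were detected on both columns of at least 1 group and so could be tested. They were selected from results of these same arrays, where the level of miR-342-3p in Sa/CD99 and Saos-2 was already known, so the difference between the cell types is described below with no test. Changes over days, and the change of one arm relative to the other, are other quantities but use the same columns as that difference. Their values are thus not independent of the choice. Changes over days were tested for miR-342-3p, and their p-values carry this limit. For miR-342-5p, which passed the filter only through Sa/CD99 day 0 and was at the floor on 6 of 12 columns, changes from that group and changes of the ratio of the arms are given with no test.

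Saos-2 is a human osteosarcoma cell line. Sa/CD99 denotes Saos-2 stably transfected with CD99, a cell surface glycoprotein, and selected in neomycin, and the 2 Sa/CD99 samples of each day were the clones Sa/CD99wt22 and Sa/CD99wt36, called clone 22 and clone 36 below. Saos-2 cells were the parental line, with replicates 1 and 2, and the labels name no control transfectant. Both cell types were collected at day 0 and after 7 and 14 days in osteogenic medium, which makes 6 groups of 2 arrays. Nothing in the labels says that the Saos-2 replicates came from separate cultures, or the clones from separate transfections. The p-values below thus measure only the spread between these samples.

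MIR342 lies within EVL, a gene for an actin regulator of the Ena/VASP family, and is known as an intronic miRNA that can be expressed with its host. A miRNA hairpin is cut into a duplex of its 5p and 3p arms, of which usually 1 is kept in the silencing complex while its partner is degraded. The kept strand pairs with messenger RNAs mainly through its seed, and miR-342-3p is the arm most often studied, in blood cells and in several tumors. The seeds are shown because they set the arms apart. In the sequences of RefSeq (build GRCh38.p14), the mature arms read as follows, 5′ to 3′, with the seed, bases 2 to 8, in capitals.
hsa-miR-342-5p: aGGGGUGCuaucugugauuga
hsa-miR-342-3p: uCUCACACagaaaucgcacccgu
The hairpin covers chr14:100109655-100109753 on the plus strand and is given next with both arms in capitals.
MIR342: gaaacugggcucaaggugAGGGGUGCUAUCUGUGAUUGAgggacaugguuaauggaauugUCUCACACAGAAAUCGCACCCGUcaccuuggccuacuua
miR-342-5p, of 21 bases, is at chr14:100109673-100109693, and miR-342-3p, of 23 bases, at chr14:100109715-100109737. The seeds differ, and no other miRNA with either of them was found among the mature human sequences searched. Whether those hold every human miRNA was not checked.

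The deposited records gave different samples to the same arrays. The pattern of detected miRNAs in a column of the log2 table was identical to that of 1 scanner array, over 847 of 847 shared names against at most 826 for the next best array, and in 0 of 12 cases did that array carry the sample name of the column. The values below follow the column labels of the log2 table, and "matched array" means the scanner array that fits a column. For the levels of both arms, their changes over days and their ratio, values for the arrays by the sample they were filed under are given as well where the direction differed. The summed signal of a matched array ran from 8594 to 11371 at day 0 and from 25232 to 62236 at days 7 and 14, and the number of miRNAs detected ran from 133 to 158 at day 0 and from 158 to 229 later. Groups also fell on 2 slides: Sa/CD99 day 0, Saos-2 day 0 and Saos-2 day 7 on slide 1, and Sa/CD99 days 7 and 14 and Saos-2 day 14 on slide 2.

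miR-342-3p was detected on 12 of 12 columns and was highest at day 0 in both cell types. In Sa/CD99 its log2 values for clones 22 and 36 were 5.37 and 5.29 at day 0, 4.35 and 3.59 at day 7, and 2.77 and 3.02 at day 14. In Saos-2 they were 6.15 and 5.86 at day 0, 5.24 and 4.39 at day 7, and 4.39 and 4.43 at day 14 for replicates 1 and 2. On each day both Sa/CD99 columns lay below both Saos-2 columns. Ordered by mean, the groups were Saos-2 day 0 (6.00 ± 0.21, SD, n = 2), Sa/CD99 day 0 (5.33 ± 0.051), Saos-2 day 7 (4.82 ± 0.60), Saos-2 day 14 (4.41 ± 0.031), Sa/CD99 day 7 (3.97 ± 0.53) and Sa/CD99 day 14 (2.89 ± 0.18). Of the neighbours in this order, Saos-2 days 7 and 14 were not separated, and each other pair had no overlap of its columns. How many of the tested miRNAs show such an order was not counted. miR-342-3p ranked 41 to 59 at day 0, among the 133 to 158 miRNAs detected on its column. At day 14 it ranked 77 to 122, among 195 to 214.

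**Figure D1:**
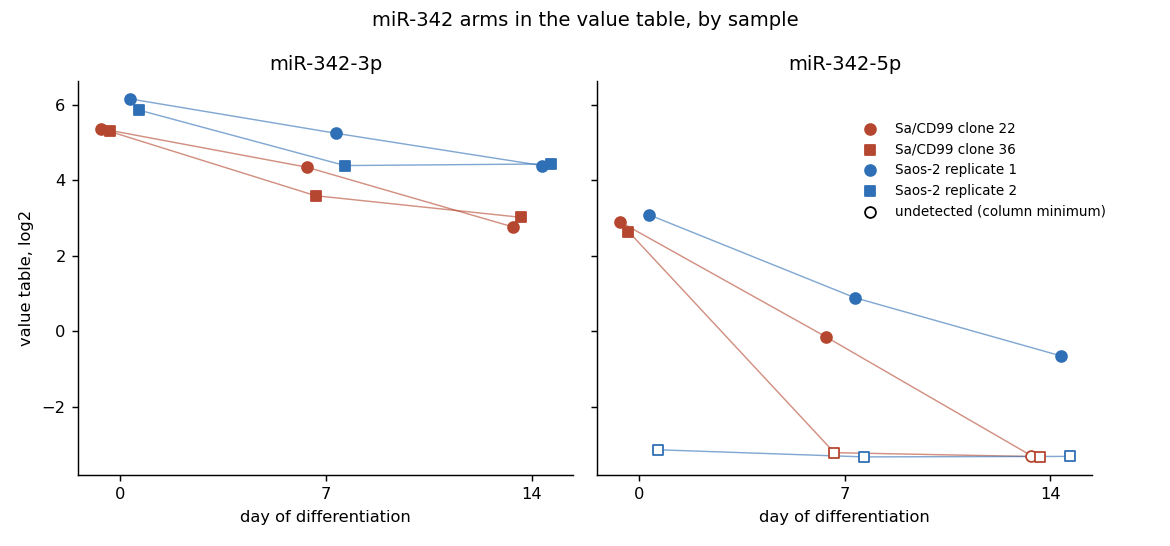
Log2 values of the deposited table (y axis) by day of differentiation (x axis) for miR-342-3p and miR-342-5p, with 1 point per sample, lines joining the same clone or replicate, and open points for values at the column minimum, which are undetected. miR-342-3p is detected on all 12 columns and lower in Sa/CD99 on each day, whereas miR-342-5p is detected on 6 of 12.

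The log fold change of miR-342-3p in Sa/CD99 over Saos-2 at days 0, 7 and 14 was -0.68, -0.85 and -1.52 (SE 0.40 for each, limma, given as a description). With 1 of the 4 arrays of day 7 left out, the day 7 difference ran from -1.27 to -0.42, the latter without Saos-2 replicate 1. Of the 219 miRNAs tested, 10 (4.57%) had both Sa/CD99 columns below both Saos-2 columns on all 3 days. The same difference was present before any normalization between arrays. The total gene signal of miR-342-3p, the intensity that the scanner software gives for a miRNA over its probes, on the matched arrays of clones 22 and 36 was 21.6 and 19.1 at day 0, 24.8 and 14.9 at day 7, and 13.6 and 17.1 at day 14. On those of Saos-2 it was 40.5 and 51.3 at day 0, 29.0 and 44.6 at day 7, and 25.0 and 49.8 at day 14. All 6 Sa/CD99 values were below all 6 Saos-2 values, although the highest of the first, 24.8, and the lowest of the second, 25.0, nearly touched. This held for 2 of 219 miRNAs (0.913%), the other being miR-551b, which is named here after its values were seen. The ratio of Sa/CD99 to Saos-2 means was 0.443, 0.539 and 0.411 at days 0, 7 and 14. At day 0 and at day 14 the arrays compared were on the same slide, and at day 7 they were not.

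By the samples they were filed under, the same arrays gave the opposite direction. The total gene signal of miR-342-3p was then 29.0 and 21.6 in Sa/CD99 and 13.6 and 25.0 in Saos-2 at day 0. At day 7 it was 40.5 and 44.6 against 24.8 and 17.1. At day 14 it was 19.1 and 51.3 against 49.8 and 14.9. The ratio of means was 1.31, 2.03 and 1.09, and the groups overlapped at days 0 and 14. After background correction and quantile normalization the log fold change on the arrays as filed was 1.50, 1.37 and 1.39, against -0.78, -0.77 and -1.18 for the same processing with the matched labels. For the arrays as filed, slide 1 held the Sa/CD99 and slide 2 the Saos-2 samples, so there a slide effect and a cell type effect cannot be told apart.

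**Figure D2:**
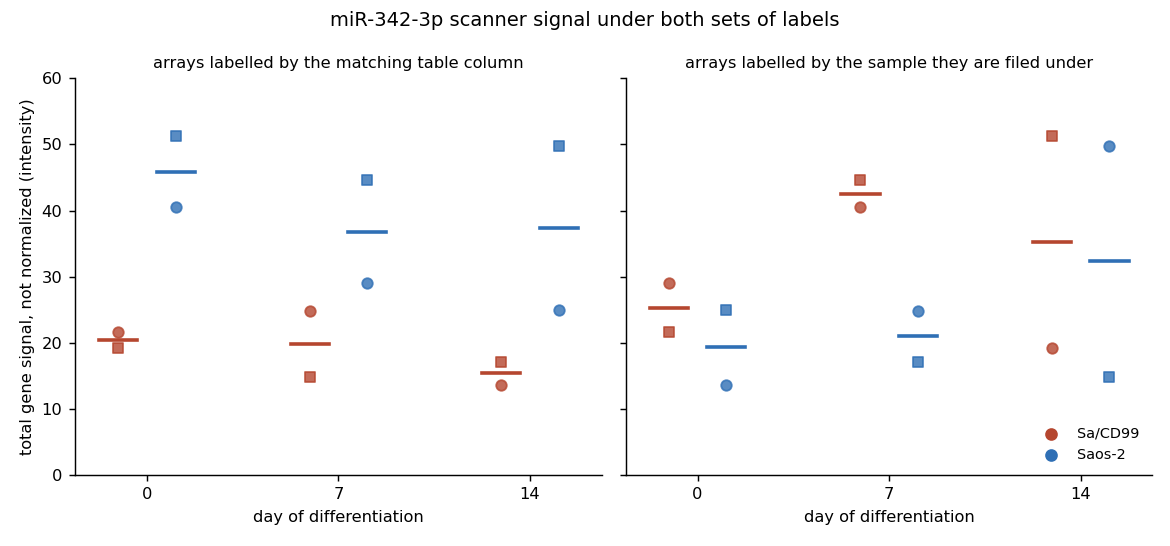
Total gene signal of miR-342-3p on each array, not normalized (y axis, intensity), by day (x axis), with points for arrays (circles for clone 22 or replicate 1, squares for clone 36 or replicate 2) and bars for group means. With the labels of the matching table columns (left) all Sa/CD99 points lie below the Saos-2 points, and with the samples the arrays were filed under (right) the Sa/CD99 means are the higher ones.

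Each arm had 2 probes of 8 spots. Both probes of miR-342-3p had 6 of 6 Sa/CD99 matched arrays below 6 of 6 Saos-2 matched arrays. The dimmer of them averaged 8.01 (range 6.27 to 11.1) in Sa/CD99 and 19.7 (12.5 to 26.1) in Saos-2, a ratio of 0.407 in background-subtracted signal. The brighter averaged 27.2 (20.9 to 34.3) and 58.0 (34.8 to 76.0), a ratio of 0.469. No spot of either was saturated. By the samples the arrays were filed under, the groups overlapped for both probes: the dimmer ran from 8.52 to 26.1 in Sa/CD99 and from 6.27 to 25.3 in Saos-2, and the brighter from 27.5 to 76.0 and from 20.9 to 72.3.

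Over differentiation miR-342-3p fell in the log2 table in both cell types. In Sa/CD99 the log fold change from day 0 to day 7 was -1.36 ± 0.40 (SE; adjusted p = 0.0361, limma, Benjamini-Hochberg over 219 miRNAs), and from day 0 to day 14 it was -2.44 ± 0.40 (adjusted p = 0.00127). The step from day 7 to day 14, whose arrays shared a slide, was -1.08 and did not pass (adjusted p = 0.0990, limma), and it was -0.42 with each column centred on its median and -0.35 with the total gene signal of the matched arrays scaled to the 75th percentile. So scaled, the change from day 0 to day 14 in Sa/CD99 was -1.06 (adjusted p = 0.0287, limma). In Saos-2 the change from day 0 to day 14 was -1.59 ± 0.40 (adjusted p = 0.0137, limma). From day 0 to day 7, on 1 slide, it was -1.19 and just missed the threshold (adjusted p = 0.0504, limma). With the replicate number as a block the adjusted p was 0.0381 (limma). From day 7 to day 14 the change was -0.40 (adjusted p = 0.805, limma). The called changes, to days 7 and 14 in Sa/CD99 and to day 14 in Saos-2, each compared arrays of different slides. With 1 mean per group, a slide effect and a day effect cannot be told apart for them. Columns of day 0 and day 14 did not overlap in either cell type, and how many of the tested miRNAs show this was not counted. Of the 100 miRNAs detected on every column, 89 in Sa/CD99 and 87 in Saos-2 had a lower mean at day 14 than at day 0. The scanner arrays after background correction and quantile normalization gave -1.95 in Sa/CD99 and -1.55 in Saos-2 from day 0 to day 14 with the matched labels, and 0.40 (adjusted p = 0.896, limma) and 0.52 (adjusted p = 0.946), the opposite direction, by the samples they were filed under. So labelled, the steps to day 7 and from day 7 to day 14 were 0.088 and 0.32 in Sa/CD99 and 0.22 and 0.30 in Saos-2. The call from day 0 to day 14 in Sa/CD99 was kept without any 1 array (adjusted p up to 0.0102). The call to day 7 in Sa/CD99 was lost without clone 22 or 36 of day 0 (adjusted p = 0.129 and 0.120), clone 36 of day 7 (0.199), or clone 22 or 36 of day 14 (0.0508 and 0.0532), and the call in Saos-2 without replicate 1 of day 0 (0.0589) or of day 14 (0.0552).

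Many miRNAs changed over days in this table, so these calls were common ones. Between day 0 and day 14, 163 of 219 miRNAs (74.4%) were called in Sa/CD99 and 122 (55.7%) in Saos-2. From day 0 to day 7 the shares were 32% in Sa/CD99 and 36.5% in Saos-2. From day 7 to day 14 they were 19.6% in Sa/CD99 and 0% in Saos-2, where limma called 0 of 219 and 19 had an unadjusted p of at most 0.05. Several of these counts rested on single arrays. In Sa/CD99 from day 7 to day 14, the 43 calls became 21 or 26 without clone 22 or 36 of day 0, 7 or 22 without those of day 7, 5 or 22 without those of day 14, and 76 or 79 without Saos-2 replicate 1 or 2 of day 7. In Saos-2 over the same days, the count of 0 became 6 or 19 without replicate 1 or 2 of day 7, 1 or 5 without those of day 14, and 2 without either clone of day 7. The 70 calls of Sa/CD99 to day 7 became 45 without clone 36 of day 7, and the 122 of Saos-2 to day 14 became 81 without replicate 2 of day 0 and 65 without replicate 1 of day 14. The calls in Sa/CD99 from day 0 to day 14 split into 81 higher and 82 lower, and into 86 higher and 32 lower when each column was centred on its median over the 100 miRNAs detected on every column.

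These 100 miRNAs had a median log2 change to day 14 of -1.57 in Sa/CD99 and -1.15 in Saos-2. The change of miR-342-3p minus that shared shift was -0.87 in Sa/CD99 and -0.45 in Saos-2. In Sa/CD99 29 of the 100 and in Saos-2 28 of them fell by more. After centring, the fall of miR-342-3p was -1.31 (adjusted p = 0.0150, limma) in Sa/CD99 and -0.86 (adjusted p = 0.0953) in Saos-2, so that only the first kept its call.

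Without normalization the fall was small. The total gene signal of miR-342-3p on the matched arrays gave a log fold change from day 0 to day 14 of -0.41 in Sa/CD99 (adjusted p = 0.594, limma) and -0.37 in Saos-2 (adjusted p = 0.708), where the median of the miRNAs tested moved by 0.99 and 0.66. A signal of 24.8 on the day 7 array of clone 22 stood at 4.35 in the log2 table, whereas a lower signal of 21.6 on the day 0 array of the same clone stood at 5.37. The summed signal of the arrays rose with the fall of miR-342-3p in the table, and its part in that fall was not tested. In samples of whole cultures, fewer cells that express a miRNA and less of it per cell cannot be told apart.

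**Figure D3:**
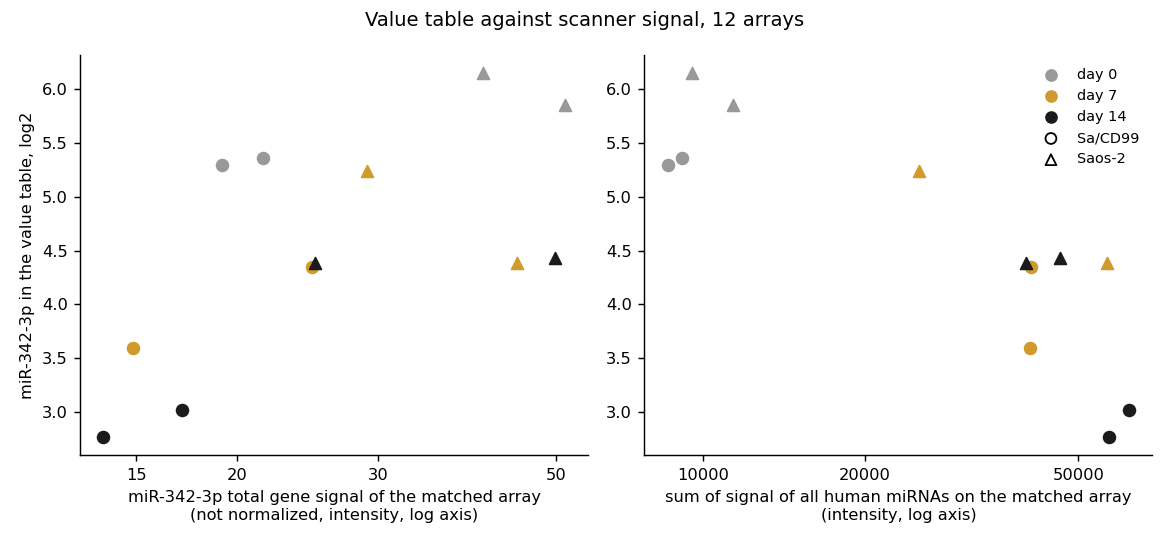
Log2 value of miR-342-3p in the deposited table (y axis) against its own total gene signal on the matched array (left x axis) and against the summed signal of all human miRNAs on that array (right x axis), both intensities on log axes, with 1 point for each of the 12 arrays. The day 0 arrays, with summed signals of 8594 to 11371, hold the table's values from 5.29 to 6.15, at own signals from 19.1 to 51.3.

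The fall to day 14 was larger in Sa/CD99 by -0.84 ± 0.57 (SE) in the log2 table. This difference was -0.45 with columns centred, and -0.40 on matched arrays after background correction and quantile normalization. It was -0.18 with the 75th percentile, -0.042 without normalization and -0.11 for the arrays as filed. The difference of the changes over days between the cell types did not pass for miR-342-3p (adjusted p = 0.882, limma F test of cell type by day). The same test called 4 of 219 miRNAs (1.83%), miR-23a*, miR-378, miR-550 and miR-596, named after their values were seen. This count was 0 with floor values taken as missing or with only miRNAs detected on all columns, 7 without clone 22 of day 0, 16 or 10 without Saos-2 replicate 1 or 2 of day 0, 26 or 14 without those of day 7, and 15 without replicate 1 of day 14.

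**Figure D4:**
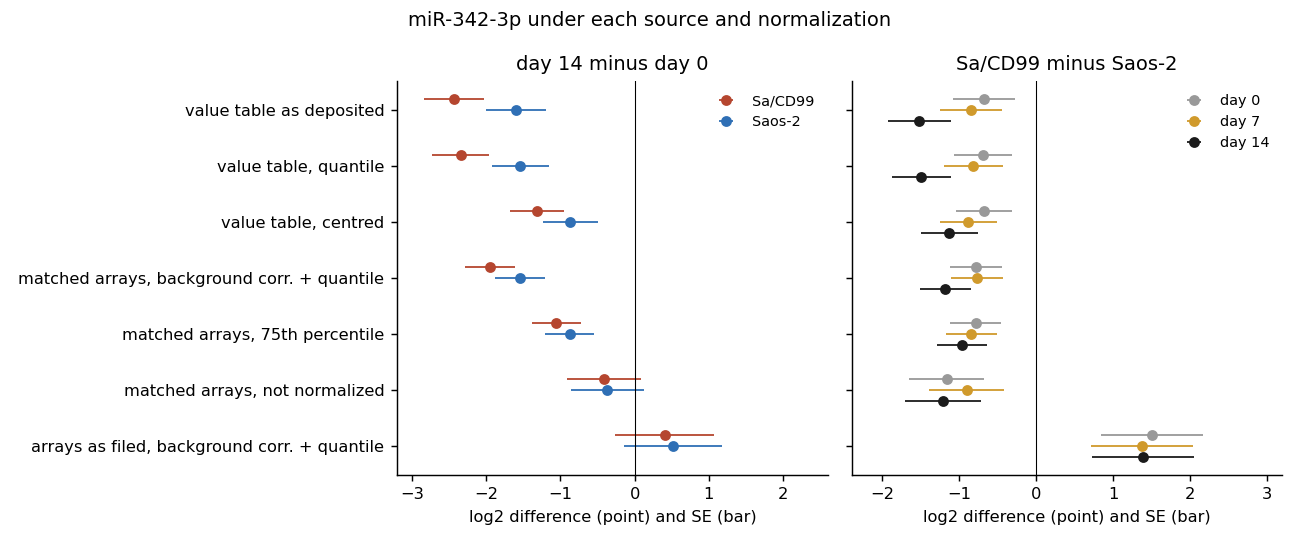
Log2 difference of miR-342-3p (point) with its SE (bar) on the x axis, for day 14 minus day 0 in each cell type (left) and for Sa/CD99 minus Saos-2 on each day (right), under the sources and normalizations named on the y axis. The change over days runs from -2.44 in the deposited table to -0.41 without normalization in Sa/CD99, the difference between cell types is below 0 in each of the 6 settings with the table's labels, and both are above 0 for the arrays as filed.

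miR-342-5p was at the edge of detection. In the log2 table it stood at 2.91 and 2.64 for clones 22 and 36 at day 0, at -0.14 for clone 22 at day 7, and was undetected for clone 36 at day 7 and for both clones at day 14. In Saos-2 it was detected for replicate 1 on each day, at 3.09, 0.89 and -0.65 at days 0, 7 and 14, and for replicate 2 on none. The lowest detected value was thus -0.65, and the undetected ones were at their column minimums, -3.32 to -3.13. In replicate 2 of Saos-2, where miR-342-5p was undetected, the total gene signal of miR-342-3p on the matched array was the higher of the pair on each day. By the samples the arrays were filed under, miR-342-5p was detected in Saos-2 for replicate 2 at day 0, replicate 1 at day 7 and neither at day 14, and at days 0 and 7 the array that detected it had the higher signal of miR-342-3p.

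On the 6 matched arrays that detected it, the total gene signal of miR-342-5p stayed between 2.73 and 3.53, with an error given by the scanner software of 0.80 to 0.95. The log2 table placed these 6 signals between -0.65 and 3.09. Its brighter probe averaged 4.75 and 5.14 in Sa/CD99 at day 0, 4.76 and 1.39 at day 7, and 2.32 and 2.50 at day 14, in background-subtracted signal. In Saos-2 it averaged 6.57 and 4.36 at day 0, 4.92 and 3.05 at day 7, and 5.44 and 3.36 at day 14. The SD over the 8 spots was 1.32 to 2.51, and the 95th percentile of probes of undetected miRNAs was 1.99 to 3.42 on these arrays. At day 14 both Sa/CD99 matched arrays were below both Saos-2 matched arrays for this probe, and at days 0 and 7 the groups overlapped. By the samples the arrays were filed under, the direction at day 14 was the opposite, with 5.14 and 4.36 in Sa/CD99 against 3.36 and 1.39 in Saos-2, and at days 0 and 7 the groups overlapped too. The other probe reached at most 2.19 on any array.

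**Figure D5:**
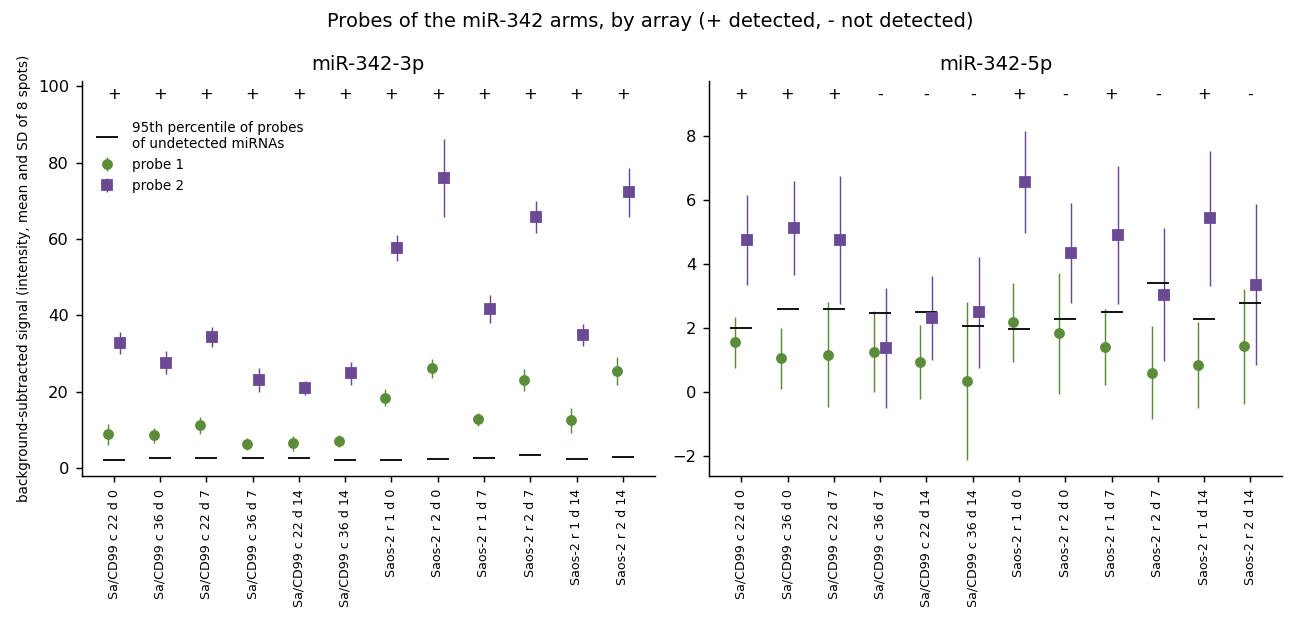
Background-subtracted signal (y axis, intensity) of the dimmer (probe 1) and the brighter probe (probe 2) of each arm on the 12 matched arrays (x axis; c, clone; r, replicate; d, day), as the mean and SD of 8 spots, with dashes for the 95th percentile of probes of undetected miRNAs and the detection call (+ or -) above. Both probes of miR-342-3p are above the dashes on all arrays, at 6.27 to 76.0, and those of miR-342-5p run from 0.365 to 6.57, on either side of them.

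miR-342-5p was among the 219 miRNAs tested only because both Sa/CD99 columns of day 0 detected it, so its change from that group is described with no test. The brighter probe averaged 4.94 at day 0 and 2.41 at day 14 in Sa/CD99, in background-subtracted signal. Both matched arrays of day 14 called the arm undetected, and their probe averages of 2.32 and 2.50 compare with 2.52 and 2.06 for the 95th percentile of probes of undetected miRNAs, so no log fold change is given from them. In the log2 table it was -6.08, with both day 14 columns at their minimum, so this value is set by the floor. By the samples the arrays were filed under, miR-342-5p was detected on 2 of 2 Sa/CD99 arrays at day 0 and on 1 of 2 at day 14, with a total gene signal of 2.73. The other changes between days lie between groups with at most 1 detected column each, and no test of them is given either. In replicate 1 of Saos-2, detected on each day, the values of 3.09 at day 0 and -0.65 at day 14 differed by -3.73 in the log2 table, while the total gene signals behind them were 3.53 and 2.89.

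The arms were compared by the change of their log2 ratio, 3p over 5p, within an array, and not by level, since they have different probes. Of 215 hairpins with both arms in the table, 92 had neither arm detected on any column, 1 had both on all 12, and 17 could be fitted. The miR-342 hairpin was among these only through Sa/CD99 day 0, where both columns detected both arms, and in Saos-2 miR-342-5p was at the floor for replicate 2 on each day, so its ratio is given with no test in either cell type. From day 0 to day 14 it changed by 3.64 ± 2.0 (SE) in Sa/CD99 in the log2 table, with miR-342-5p at the floor. On the matched arrays after background correction and quantile normalization it changed by -0.96 ± 0.36. Both of these day 14 arrays called miR-342-5p undetected. Its brighter probe was above the 95th percentile of probes of undetected miRNAs for clone 36 and below it for clone 22. In Saos-2 the change was 0.36 ± 2.0 in the table, where limma called 7 of the 17 hairpins (41.2%), and -0.72 ± 0.36 on the matched arrays, with miR-342-5p undetected on 1 array of each day. The arrays by the samples they were filed under gave 0.64 in Sa/CD99 and 0.53 in Saos-2 with the same processing. With the total gene signal of the matched arrays the ratio changed by 4.39 in Sa/CD99, with miR-342-5p undetected at day 14, and by -0.23 in Saos-2. With floor values of the table taken as missing, it changed by 1.97 in Saos-2, from 1 array at each day, and could not be fitted in Sa/CD99. The direction in which the arms shifted relative to each other was thus not settled.

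The miRNAs whose log2 values were most like those of miR-342-3p over the 12 columns were miR-361-5p (Pearson r = 0.948), miR-301a (r = 0.946), miR-196b (r = 0.944), miR-149 (r = 0.932) and miR-98 (r = 0.920). The columns share the shift between days, and over the 99 miRNAs compared the median r was 0.775, with 88 above 0 and a range from -0.860 to 0.948. miR-342-5p was detected on too few columns for this.

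Within 1 Mb of the hairpin on chromosome 14, the table holds 66 other miRNA names, most of them from the imprinted DLK1-DIO3 cluster. Of these, 60 were undetected on all columns and 5 were tested. The nearest, miR-345, lies 198.1 kb away and was detected on 0 of 4 columns at day 0, 3 of 4 at day 7 and 4 of 4 at day 14. Of the other 4, named after their values were seen, miR-134, miR-370 and miR-654-5p were also detected on 0 of 4 columns at day 0 and on 4 of 4 at days 7 and 14, so these and miR-345 passed the filter only through later days and no test is given. miR-494 was detected on all 12 columns and rose from day 0 to day 14 by 3.30 in Sa/CD99 (adjusted p = 0.00595, limma) and 2.50 in Saos-2 (adjusted p = 0.0249), among 81 and 63 of 219 miRNAs called higher.

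miR-342-3p is known as abundant in blood cells. Of 7 miRNAs listed as blood cell markers, 6, among them miR-142-3p, miR-223 and miR-451, were undetected on all 12 columns, and miR-486-5p was detected on all, at log2 values of 0.37 to 4.24. From day 0 to day 14 its log fold change was -3.24 in Sa/CD99 (adjusted p = 0.00805, limma) and -3.09 in Saos-2 (adjusted p = 0.0152, limma). It was among 82 and 59 of 219 miRNAs called lower, as was miR-342-3p. For the arrays as filed, limma called 0 miRNAs in these changes. The part of miR-486-5p in the change of miR-342-3p was not tested. The 4 epithelial, 3 muscle and 1 liver miRNAs listed were undetected throughout. Of 8 miRNAs listed for the mesenchymal and osteoblast lineage, 5, including miR-21, miR-199a-3p and miR-214, were detected on all columns, miR-29b on 1, and miR-143 and miR-218 on none.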

How the data were processed

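RNA of 12 samples was hybridized to one-colour Agilent human miRNA arrays. The authors deposited the scanner output of each array and a table of log2 values. The scanner output holds spot and total gene signals as intensity, not normalized (Feature Extraction 10.7.3.1 per the file headers). The study's methods describe normalization of the miRNA data by an adaptation of RMA for miRNAs. They do not say whether the deposited log2 table holds those values. The exact scale and offset of these deposited log2 values are not given in the sources used here. A value at the minimum of its column was taken as undetected.

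The members, the lists and the use of the log2 table with its own labels as main values were chosen with earlier results of these data known, among them that the direction between cell types differs between the records. Scanner arrays were matched to columns by detection. Tests used limma 3.58.1 (R 4.3.3) with 1 mean per group and 6 residual degrees of freedom, over the 219 miRNAs detected on both columns of a group, called at an adjusted p of at most 0.05. Scanner alternatives used background correction, quantile normalization and median polish, or the total gene signal scaled to the 75th percentile. The fit was tested on simulated data. Deviations of samples with the same clone or replicate number correlated across days in the table (r = 0.41 to 0.63, 6 pairs of days). The numbers were thus taken to pair samples, for clones by the labels and for Saos-2 replicates only by the data. The main fit did not use this pairing, and a fit with the number as a block was an alternative. Named miRNAs were the members, the 5 most similar to miR-342-3p, miR-345, and listed markers. RefSeq placed 770 of 851 names (90.5%). The number of arrays limits the precision.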

Additional observations from a re-analysis of the deposited data

How the results depend on the processing

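Arrays labelled by the sample they were filed under reversed miR-342-3p in each difference between cell types and each change between days. Sa/CD99 minus Saos-2 was 1.50, 1.37 and 1.39 at days 0, 7 and 14, the Sa/CD99 changes from day 0 to 7, 7 to 14 and 0 to 14 were 0.088, 0.32 and 0.40, those of Saos-2 were 0.22, 0.30 and 0.52, and limma called 0 miRNAs in these 6 changes, with 0 to 11 at an unadjusted p of at most 0.05. For these 9 values all other alternatives kept the direction, except the step from day 7 to day 14 in Saos-2 without 1 array (below). The change to day 7 in Sa/CD99 minus that in Saos-2, -0.17, was 0.012 on matched arrays, 0.26 without normalization, 0.21 without clone 36 of day 7 and 0.26 without Saos-2 replicate 1 of day 7. The cause of the changes that follow was not tested.

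Centring the table took the call from the change to day 7 in Sa/CD99 (-0.89) and to day 14 in Saos-2 (-0.86), as did the 75th percentile (-0.70 and -0.88), and the difference at day 14 became -1.13 and -0.97. The change to day 14 in Sa/CD99 became -1.31 and -1.06, both called, and the step from day 7 to day 14 there -0.42 and -0.35. Without normalization, a setting chosen after seeing the data, these changes were -0.082 and -0.37, that to day 14 in Sa/CD99 was -0.41, with -0.33 from day 7, and none was called, while the difference at day 0 was -1.17. The change to day 7 in Sa/CD99 (-1.36) missed the study's thresholds, and that to day 14 in Saos-2 (-1.59) missed with only the 6 arrays of the cell type. The change to day 7 in Saos-2 was called with quantile normalization (-1.14), on matched arrays (-1.21), and at -1.19 with no filter, with the stricter filter, with floor values missing and with the replicate block (adjusted p = 0.0381, limma). The block changed no other call. The arm ratio, given with no test, was in Sa/CD99 3.64 with only the 6 arrays of the cell type and -0.96 on matched arrays, where it was -0.72 in Saos-2. In Saos-2 it was -0.23 with the total gene signal, scaled or not.

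When single arrays were left out, the changes of miR-342-3p from day 0 to 7 and 7 to 14 ran from -1.74 to -0.98 and -1.45 to -0.70 in Sa/CD99, and from -1.62 to -0.76 and -0.83 to 0.022 in Saos-2, the last without replicate 1 of day 7. The change to day 14 in Saos-2 ran from -1.74 to -1.45, and the difference at day 7 from -1.27 to -0.42. The arm ratio ran from 3.50 to 3.78 in Sa/CD99, and from -2.60 (without replicate 1 of day 0) to 3.32 in Saos-2. In Sa/CD99 the step from day 7 to day 14 was called without either Saos-2 array of day 7 (adjusted p = 0.0358 and 0.0370, limma).

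Between days 0 and 14 the number of miRNAs called in Sa/CD99 was 163, 760 with no filter, where undetected miRNAs carry column minimums that differ between columns, and 82 among miRNAs detected on all columns; in Saos-2 it was 122, 727 and 64. Between days 0 and 7 these were 70, 688 and 31 in Sa/CD99 and 80, 700 and 39 in Saos-2, and between days 7 and 14 in Sa/CD99 43, 11 and 10. With only the arrays of the cell type, the counts of Sa/CD99 were 107 to day 7 and 94 from day 7 to 14, and that of Saos-2 to day 14 was 68. With floor values missing, those of Sa/CD99 were 43 to day 7, 9 from day 7 to 14 and 103 to day 14. Without normalization, Sa/CD99 had 22 from day 7 to 14 and 102 to day 14, and Saos-2 had 80 to day 14. The slide could not be fitted beside 6 group means. In a fit of cell type plus day, added after seeing the data, the change of miR-342-3p to day 14 was -2.02 without and -2.27 with the slide in the table, and -0.39 and -0.67 without normalization. With 2 arrays a group, and miR-342-5p near the level of undetected probes, small changes were not detectable.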
